A study of Rattus norvegicus with 12 samples.

Results

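The proteins of the mitochondrial ribosome were read out as messenger RNA in N27 cells with and without the voltage-dependent anion channel Vdac1. The genes were taken by name: every array gene name made of Mrpl or Mrps, a number and at most 1 further letter was a member. The rule found 70 of the 36174 gene names on the array, 41 for the large subunit (Mrpl) and 29 for the small subunit (Mrps). Of these, 68 were tested, because the probe standing for each rose well above background on 5 or more of the 12 arrays, and 66 of the 68 were well above background on all 12. Mrps10, above background on 1 array, and Mrps28, above on 0 arrays, were not tested.

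The mitochondrial ribosome translates the few messages that the mitochondrial genome encodes, all of them core subunits of the respiratory chain and ATP synthase. Its ribosomal RNAs come from the mitochondrial genome, whereas all of its proteins are encoded in the nucleus, made in the cytosol and imported. Some of these proteins descend from the bacterial ribosome, and others were added in the mitochondrial lineage.

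N27 is an immortalised rat line from fetal midbrain, and all 12 samples were N27 cells, with no other treatment named. The wild-type group held 5 cultures (numbers 3, 5, 6, 7 and 8) and the knockout group 7 cultures (numbers 1 to 7) in which Vdac1, the gene of a metabolite channel of the outer mitochondrial membrane, had been removed by CRISPR. The labels do not tell 1 knockout clone from several, where the edit lies, or if cultures were grown independently, so the p-values measure only the spread between these samples. Total RNA was hybridised to 1-colour Agilent arrays, and the comparison the design names asks how loss of Vdac1 alters the transcriptome.

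Vdac1 signal checked the labels: the brightest Vdac1 probe read 3.61, 3.14, 3.07, 3.16 and 3.07 in wild-type cultures 3, 5, 6, 7 and 8, and 2.54, 2.45, 2.68, 2.26, 1.21, 1.53 and 1.20 in knockout cultures 1 to 7, as log2 signal relative to the array's 75th percentile. The groups did not overlap, and the difference was -1.23 (SE 0.28; limma adjusted p = 0.056). It was -1.97, -0.58 and -1.38 within slides 1, 2 and 3. The labelled cell type was only partly borne out by its markers. Th was above background on all 12 arrays, as were Cx3cr1 of the glial and Col1a1 of the fibroblast or endothelial markers. Of the 8 dopaminergic markers, 4 (Slc6a3, Ddc, Foxa2 and En1) were above background on none. So were 5 of 7 neuronal, 4 of 8 glial and 2 of 6 fibroblast or endothelial markers. Those above on at least 5 arrays were 3 of 8 dopaminergic and 1 of 7 neuronal markers. The same count was 1 of 8 for glial and 4 of 6 for fibroblast or endothelial markers. Genotype was not the main axis of spread. On component 1 of a principal component analysis, with 37.4% of the variance, knockout cultures 1 to 4 and wild-type culture 3 lay between -44.2 and -32.0 and the other 7 lay between 14.8 and 45.2. The arrays also lay on 3 slides, slide 3 being scanned on a day of its own, with both genotypes on every slide. Slide 2 held knockout cultures 1 to 3 and wild-type culture 5 alone. Within slide 2, genotype therefore cannot be told apart from the split on component 1. Values within the sample numbers or slides are therefore given beside the genes with the largest differences and the one whose groups did not overlap.

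Each signal is the light from a probe of 60 bases. The sequences of 5 probes are shown because the results below turn on them or because they cross an exon junction, which the genomic span given in the file header's build, rn4, makes visible: a probe of 60 bases that covers more genome than its own length reads spliced message. All 5 are printed 5′ to 3′ in lower case. Mrpl3 has the largest difference of any member, Mrpl47 the lowest, Mrps36 the largest in the small subunit, and Mrps27 is the member whose probes differ in sign with 1 of them at an unadjusted p under 0.05. The Mrpl3 probe covers chr8:110138311-110140337, the Mrpl47 probe chr2:118940940-118942962, the Mrps36 probe chr2:31531272-31532310, the Mrps27 probe chr2:30403939-30405986 and the Mrps18b probe chr20:2987325-2987478.
Mrpl3: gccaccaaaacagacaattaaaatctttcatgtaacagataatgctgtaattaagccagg
Mrpl47: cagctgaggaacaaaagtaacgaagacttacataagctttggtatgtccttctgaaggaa
Mrps36: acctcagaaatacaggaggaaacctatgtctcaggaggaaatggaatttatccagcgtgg
Mrps27: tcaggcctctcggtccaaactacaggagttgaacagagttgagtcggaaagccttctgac
Mrps18b: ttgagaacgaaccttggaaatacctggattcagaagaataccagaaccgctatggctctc

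Promoters of these genes are known for binding sites of NRF1, of ETS factors such as GABP, and of YY1. RefSeq promoters (build GRCr8, 250 bases before to 50 after the start) matched 54 members, with 56 promoters. On either strand, the ETS motif CCGGAAG stood in 32.1% of the members' promoters, against 18.1% of the 8863 promoters of features tested and 8.75% of all 33469. The YY1 motif AAGATGGCG stood in 16.1%, against 3.78% and 1.73%, and the full NRF1 motif, GCGCATG followed by CGC, in 7.14%, against 2.03% and 0.852%. NRF1's shorter form GCGCATG, which overlaps the full motif, stood in 6 of the 56, against 7.09% and 3.77%. The NF-Y motif CCAAT stood in 44.6%, against 38.1% and 37.5%, and the E-box CACGTG in 6 of the 56, against 9.15% and 6.42%. TATAAA stood in 14.3%, above the 7.20% of features tested and close to the 14.2% of all promoters. A motif was present as letters only, and binding was not measured. The windows of 150 bases before the start are shown for Mrps18b, which holds the full NRF1 motif, Mrpl22, which holds its shorter form, and Mrpl10, the member whose groups did not overlap, which holds neither. Capitals mark these motifs, and no capitals mean no match of the NRF1, ETS or YY1 letters. The windows are chr20:2842856-2843005, chr10:42845760-42845909 and chr10:82522320-82522469, all on the plus strand.
Mrps18b: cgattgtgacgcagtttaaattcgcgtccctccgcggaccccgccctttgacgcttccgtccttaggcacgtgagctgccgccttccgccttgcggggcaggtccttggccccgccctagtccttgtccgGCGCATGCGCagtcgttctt
Mrpl22: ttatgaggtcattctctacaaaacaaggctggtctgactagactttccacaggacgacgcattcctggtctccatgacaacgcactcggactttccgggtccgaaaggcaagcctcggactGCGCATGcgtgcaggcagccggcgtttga
Mrpl10: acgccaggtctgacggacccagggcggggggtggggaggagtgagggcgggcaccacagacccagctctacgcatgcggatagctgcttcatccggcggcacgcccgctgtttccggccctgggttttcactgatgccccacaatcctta

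No mitochondrial ribosomal protein gene passed the test between knockout and wild type, and most differences were small. Of the 41 large-subunit genes, 0 were called higher and 0 lower at a limma Benjamini-Hochberg adjusted p under 0.05, and the same held for the 27 small-subunit genes tested. Over all 14746 features tested, 0.698% were called higher and 0.393% lower. At an unadjusted limma p under 0.05, 7 large-subunit genes were higher and 1 lower, and 2 small-subunit genes were higher and 0 lower, which is 9 and 1 of 68 members against 9.35% and 6.23% of all features. The members' count in the higher direction lay near that background. With each array's median in place of its 75th percentile, 1 of 68 members was at an unadjusted limma p under 0.05, against 8.13% of all features. In that fit 0 of all 14746 features were called, members included.

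The median log2 fold change, knockout minus wild type, was 0.09 over the large subunit and 0.11 over the small subunit, against 0.04 over all features. Differences lay above zero in 30 of 41 large-subunit genes and in 20 of 27 small-subunit genes, 73.5% of members against 55.3% of all features. Over all members they ran from -0.34 to 0.68. The median standard error was 0.158 over members and 0.204 over all features, in a fit without slide or sample number. The 95% interval of the difference stayed within 1 log2 unit of zero on both sides for 66 of 68 members. The exceptions were Mrpl3 and Mrps36. Within 0.5 it stayed for 29 members. The same counts over all 14746 features were 11659 and 3562. Over 31 fits, 17 members kept a positive sign and 0 a negative sign throughout. These fits reuse the same 12 arrays and are not independent of each other. The share of all features that kept their sign was not counted.

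**Figure D1:**
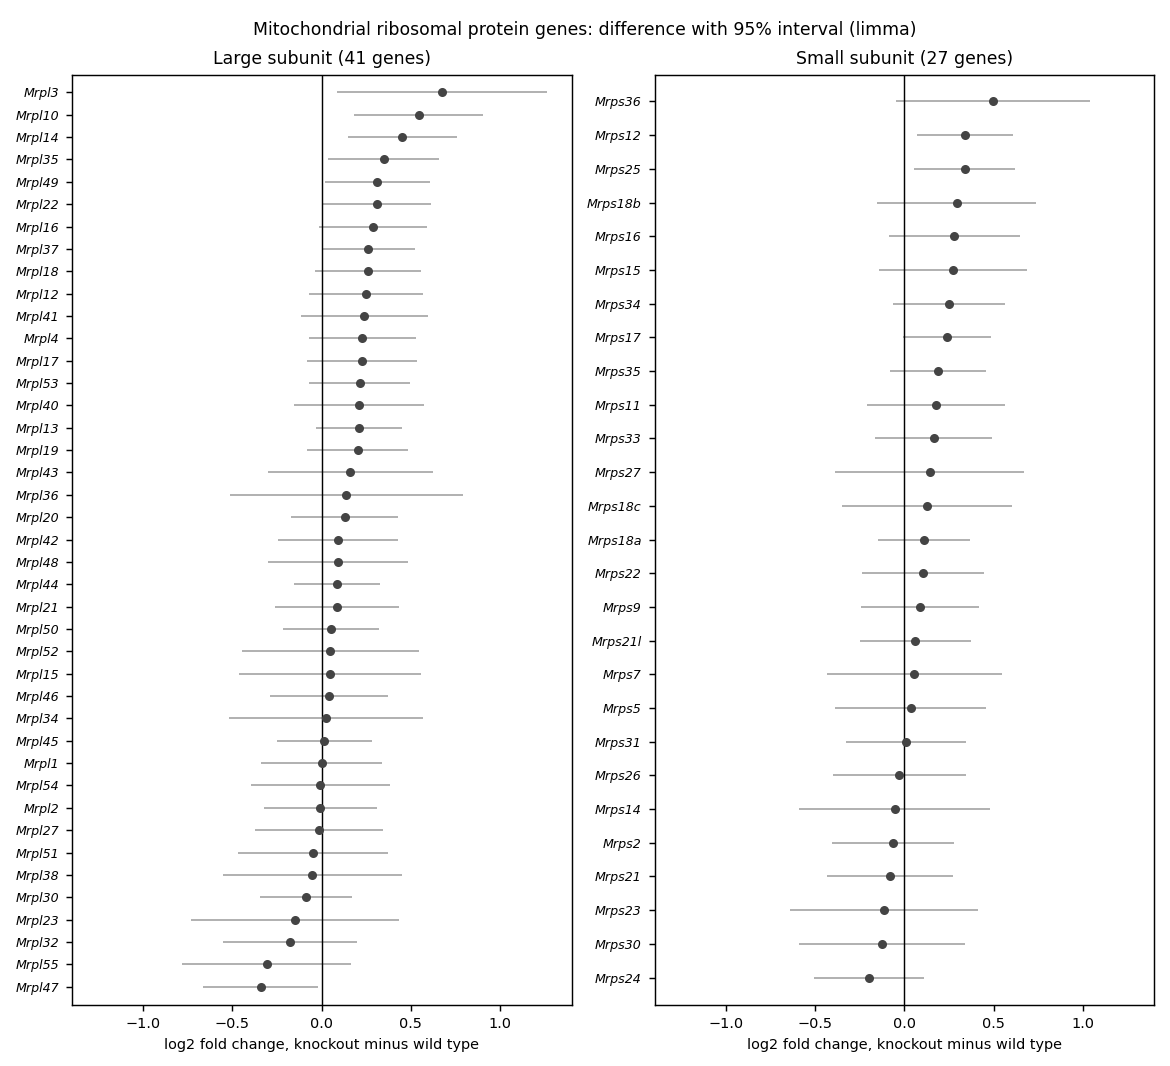
Log2 fold change of each gene, knockout minus wild type (x axis), with its 95% limma interval, for 41 large-subunit and 27 small-subunit genes ordered by size. Most points lie within 0.5 of zero, from -0.34 for Mrpl47 to 0.68 for Mrpl3, and 0 of 68 genes passed at an adjusted p under 0.05.

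In the large subunit, Mrpl10 carries the stalk that recruits translation factors. Its signal was 4.49, 4.80, 4.67, 3.89 and 4.63 in wild-type cultures 3, 5, 6, 7 and 8, and from 4.87 through a median of 4.99 to 5.45 in the 7 knockout cultures. Every knockout culture read above every wild-type culture, and wild-type culture 7 was the lowest of all. Mrpl10 was the only 1 of 68 members whose knockout values all lay above the wild type, a pattern of 1.84% of all features, and 0 members lay wholly below, against 0.882%. The means were 5.04 ± 0.21 (SD, n = 7) and 4.50 ± 0.36 (SD, n = 5), a difference of 0.54 (SE 0.17) or 1.46-fold, which did not pass (limma adjusted p = 0.137). It was above zero within each slide, at 0.32, 0.41 and 0.66 in slides 1, 2 and 3, and at 0.66 and 0.39 among cultures numbered 1 to 4 and 5 to 8.

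Mrpl3 is a core protein of the large subunit near the site of peptide bond formation. Its signal was -2.89, -2.66, -1.83, -1.59 and -2.44 in wild-type cultures 3, 5, 6, 7 and 8, and from -2.08 through a median of -1.74 to -0.69 in the knockout. The groups overlapped, because the wild-type cultures of slide 3, numbers 6 and 7, read within the knockout range. The difference was 0.68 (SE 0.27; limma adjusted p = 0.254), 1.60-fold. Each slide gave a positive value, 0.86, 0.80 and 0.70 in slides 1, 2 and 3. The fit with the slide as a block gave 0.78 and passed (limma adjusted p = 0.0307), as it did with the scan day as a block (0.78, limma adjusted p = 0.0307). Of all 14746 features, 253 passed higher and 151 lower with the slide as a block. With the scan day as a block 230 and 138 did, against 103 and 58 without a block.

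Mrpl14 lies at the face where the subunits join. Wild-type cultures 5, 6, 7 and 8 read 1.74, 1.66, 1.67 and 1.71, wild-type culture 3 read 2.27, and the knockout cultures ran from 2.04 through a median of 2.20 to 2.53. Wild-type culture 3 alone lay inside the knockout range. Over all arrays the difference was 0.45 (SE 0.14; limma adjusted p = 0.140). Without wild-type culture 3 it was 0.57 and passed (limma adjusted p = 0.0253), and among cultures numbered 5 to 8 it was 0.72 and passed (limma adjusted p = 0.0265). Among cultures numbered 1 to 4, where wild-type culture 3 was the only wild type, it was -0.13. Of all 14746 features, 383 passed higher and 267 lower without wild-type culture 3. Among cultures numbered 5 to 8, 340 and 348 did, against 103 and 58 over all arrays.

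Mrpl47, a protein of bacterial descent beside the exit tunnel, was the member lowest in the knockout. It read -1.09, -0.59, -0.63, -0.89 and -0.58 in wild-type cultures 3, 5, 6, 7 and 8 and from -1.48 through a median of -1.02 to -0.78 in the knockout. The groups overlapped through wild-type cultures 3 and 7. The difference was -0.34 (SE 0.15) and did not pass (limma adjusted p = 0.285). It was -0.41, -0.56 and -0.11 within slides 1, 2 and 3, -0.48 among cultures numbered 5 to 8, and 0.03 among those numbered 1 to 4.

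The other large-subunit genes with the smallest p were Mrpl35, Mrpl49, Mrpl22 and Mrpl37. Mrpl35, a protein of bacterial descent, differed by 0.35, and Mrpl22, which lines the exit tunnel, by 0.31. Mrpl49 and Mrpl37, both without a bacterial homologue, differed by 0.31 and 0.26. Their groups overlapped, and limma adjusted p ran from 0.268 to 0.316. Within each slide all 4 were above zero, from 0.04 for Mrpl49 in slide 3 to 0.68 for Mrpl49 in slide 2. Among cultures numbered 1 to 4, Mrpl22 was -0.05, and Mrpl35, Mrpl37 and Mrpl49 were 0.06, 0.17 and 0.35.

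In the small subunit, Mrps12 is a protein of the decoding centre. It read 2.05, 1.65, 1.83, 1.47 and 1.85 in wild-type cultures 3, 5, 6, 7 and 8 and from 1.95 through a median of 2.11 to 2.27 in the knockout. Only wild-type culture 3 reached the knockout range. The difference was 0.34 (SE 0.12; limma adjusted p = 0.203), and 0.12, 0.53 and 0.39 within slides 1, 2 and 3.

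Mrps25, a small-subunit protein without a bacterial homologue, followed the same layout. It read 2.76, 2.09, 2.35, 2.23 and 2.18 in wild-type cultures 3, 5, 6, 7 and 8 and from 2.52 through a median of 2.67 to 2.80 in the knockout, so that wild-type culture 3 again read inside the knockout range. The difference was 0.34 (SE 0.13; limma adjusted p = 0.231), and 0.45 without wild-type culture 3, which passed (limma adjusted p = 0.0419). Without that culture, 383 of all 14746 features passed higher and 267 lower, against 103 and 58 over all arrays.

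Mrps36 had the largest difference of the small subunit by name. RefSeq lists the probe's transcript as Kgd4, a component of the 2-oxoglutarate dehydrogenase complex, so its count among ribosomal proteins rests on the array's name. It read 1.41, 0.21, 1.17, 0.21 and 0.86 in wild-type cultures 3, 5, 6, 7 and 8 and from 0.77 through a median of 1.48 to 1.78 in the knockout, and the groups overlapped. The difference was 0.50 (SE 0.25; limma adjusted p = 0.361). It was -0.29 within slide 1, 1.38 within slide 2, where the wild type was culture 5 alone, and 0.52 within slide 3. Among cultures numbered 1 to 4 and 5 to 8 it was 0.16 and 0.25, and 0.22 with these sets as a block. Of the variance of Mrps36, 68.6% lay between these sets.

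Mrps17, Mrps16, Mrps34, Mrps35 and Mrps18b complete the small-subunit genes with the smallest p. Mrps17 and Mrps16, both of bacterial descent, differed by 0.24 and 0.28. Mrps34 and Mrps35, without a bacterial homologue, differed by 0.25 and 0.19, and Mrps18b, a relative of Mrps18a and Mrps18c, by 0.29. Their limma adjusted p ran from 0.333 to 0.520. With the numbers 1 to 4 against 5 to 8 as a block, Mrps16 and Mrps34 differed by 0.096 and 0.13. In that fit Mrps17, Mrps35 and Mrps18b differed by 0.26, 0.24 and 0.38. Of the variance of Mrps16, 80.8% lay between these sets of numbers.

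**Figure D2:**
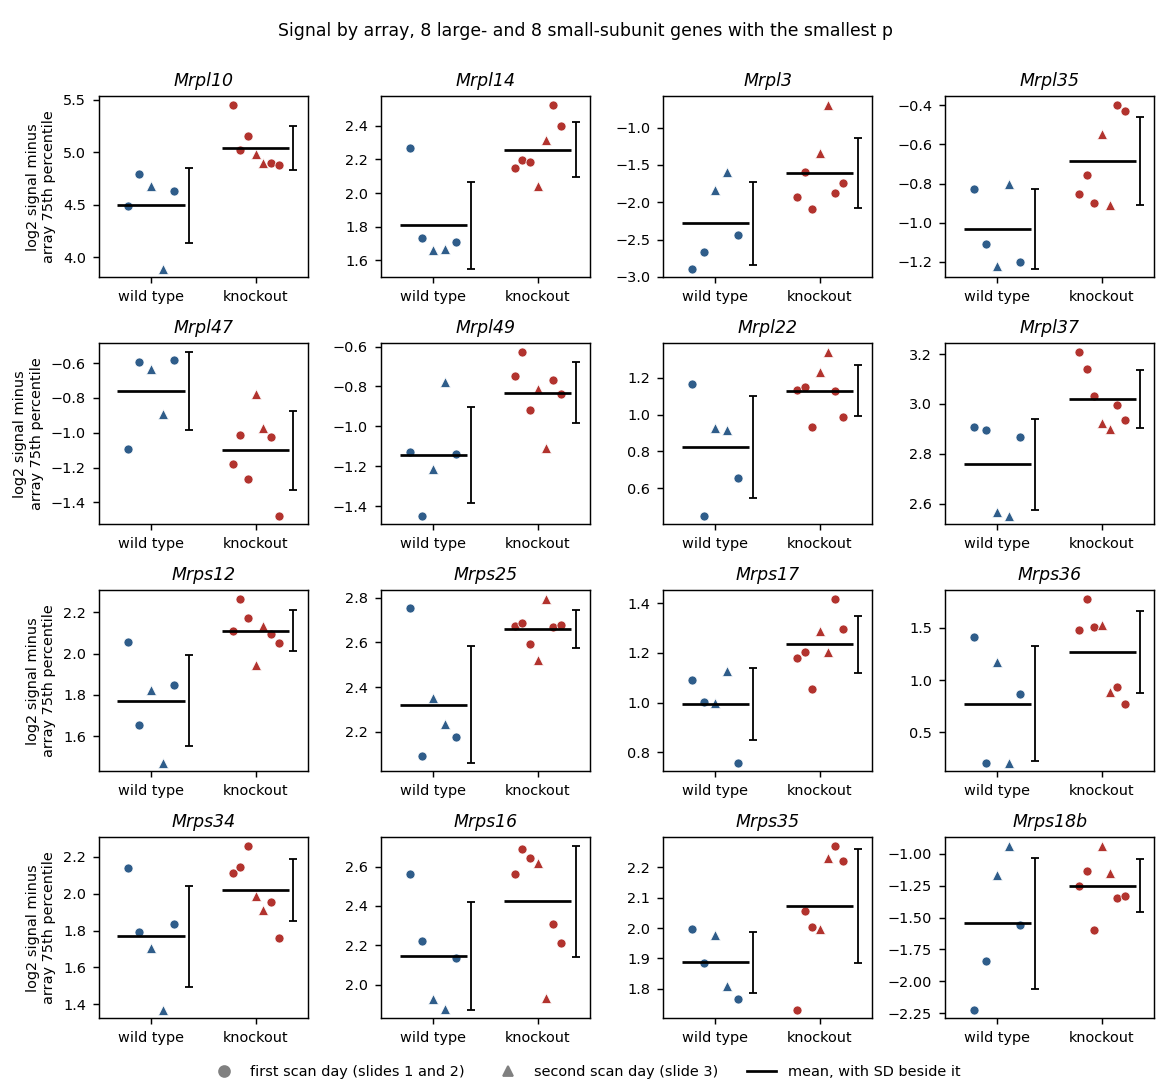
Log2 signal minus the array's 75th percentile (y axis, scaled separately for each gene) for each of 12 arrays, in the 8 large- and 8 small-subunit genes with the smallest p, as circles for the first scan day (slides 1 and 2) and triangles for the second (slide 3), with the group mean and SD. Only in Mrpl10 do all 7 knockout arrays lie above all 5 wild-type arrays, and in Mrpl14, Mrps12 and Mrps25 the highest wild-type array, culture 3, lies within the knockout range.

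Several genes were covered by more than 1 probe. Of 15 members with several probes, 11 had several above background, and in 4 of these (Mrpl30, Mrpl40, Mrps21 and Mrps27) the probes differed in sign. Mrps27, a pentatricopeptide repeat protein of the small subunit, was the 1 of these with a probe at an unadjusted p under 0.05. Its brightest probe, at base 1036 of its transcript and above background on 7 arrays, differed by 0.14 (SE 0.25; limma adjusted p = 0.830 over all probes). The other, at base 526 of a different listed transcript and above background on 10 arrays, differed by -0.73 (SE 0.29; limma adjusted p = 0.248 over all probes). Mrps21l is named as a copy of Mrps21, and whether either probe also reads the other gene's message was not tested.

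By origin, 41 members tested have a bacterial homologue and 27 do not. The median difference was 0.13 with a homologue and 0.09 without, and at an unadjusted limma p under 0.05 the counts were 6 higher and 1 lower (Mrpl47) against 3 higher and 0 lower. Over all features 9.35% were higher and 6.23% lower at that threshold. Neither class held a called gene, where 0.698% of all features were called higher and 0.393% lower. The gap between the classes was not tested.

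More members passed for scan day than for genotype. With genotype in the model, 6 members were higher on the second day at a limma adjusted p under 0.05 and 0 lower, against 5.06% and 3.97% of all features. By name the 6 were 5 of 41 Mrpl genes and 1 of 27 Mrps genes, the latter being Mrps30, whose protein lies in the large subunit. At an unadjusted limma p under 0.05, 18 members were higher and 1 lower on the second day, against 11.7% and 12.9% of all features. The median day difference was 0.18 over the large subunit and 0.04 over the small subunit, and -0.05 over all features. Members with a bacterial homologue had a median day difference of 0.22, against 0.002 without one, a gap that was not tested. The second day's arrays were those of slide 3, which had the 4 lowest 75th percentiles of signal of the 12 arrays, from 120.1 to 189.7 against 219.9 to 691.8 on the first day, and the part of signal level in the day difference was not tested. Since slide 3 made up the whole second day, slide and day cannot be told apart there.

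Mrpl23, a protein at the mouth of the exit tunnel, had the largest share of its variance between slides of all members, 88.0%. It read 2.27, 2.67, 2.45 and 2.85 on slide 3 (knockout cultures 4 and 5, wild-type cultures 6 and 7) and from 1.49 through a median of 1.57 to 2.06 on the 8 arrays of the first day. The days did not overlap, and the day difference was 0.88 (limma adjusted p = 0.0056), whereas its genotype difference was -0.15. The others were Mrpl3 at 0.88, Mrpl34, a small protein of bacterial descent, at 0.81, Mrps30 at 0.63, Mrpl55, of bacterial descent, at 0.62, and Mrpl40, without a bacterial homologue, at 0.47. In 5 members all 4 arrays of the second day read above all 8 of the first, against 3.78% of all features, and in 0 members all read below, against 2.54%.

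The shares of variance give the same order. The median member had 9.98% of its variance between genotypes, 34.0% between slides and 25.1% between scan days, against 9.11%, 26.3% and 11.8% for the median feature. In 73.5% of members more variance lay between slides, of which there are 3, than between the 2 genotypes, close to the 70.4% of all features. The centred median of the large subunit was lowest in wild-type cultures 5 (-0.23) and 8 (-0.17) and highest in knockout cultures 5 (0.20) and 4 (0.14), with wild-type cultures 6 and 7 of slide 3 at 0.06 and 0.04.

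**Figure D3:**
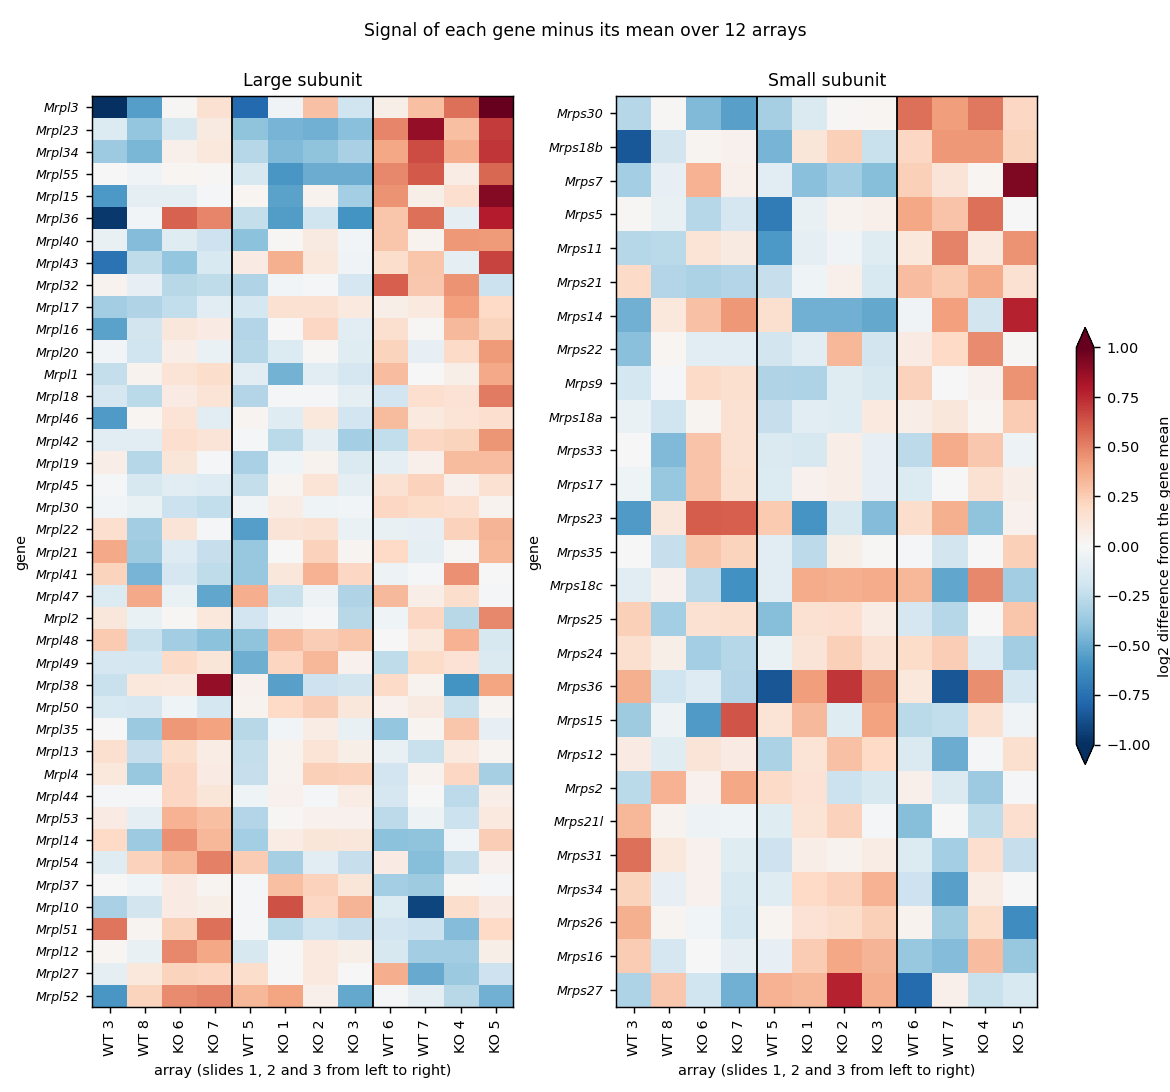
Signal of each gene minus its mean over 12 arrays (colour, log2), with arrays in columns grouped by slide 1, 2 and 3 and genes in rows. The large-subunit genes at the top, among them Mrpl3, Mrpl23, Mrpl34 and Mrpl55, read high on all or most of the 4 arrays of slide 3 in both genotypes.

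**Figure D4:**
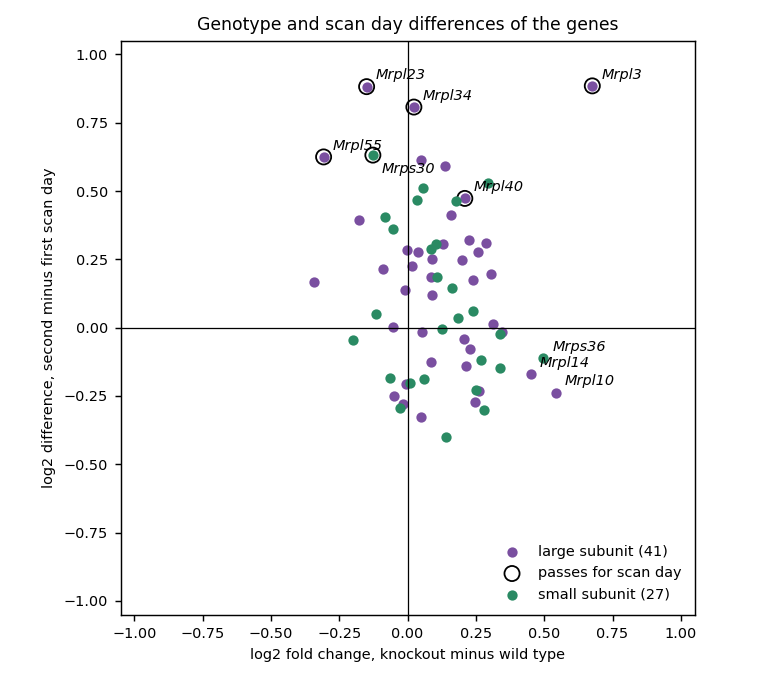
Genotype difference (x axis, log2, knockout minus wild type) against scan day difference (y axis, log2, second minus first day) for 41 large- and 27 small-subunit genes, with rings on the 6 genes that passed for scan day. The ringed genes lie between 0.47 and 0.88 on the day axis, on both sides of zero on the genotype axis.

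Members also differed between sets of culture numbers within the knockout, about as often as other features did. Knockout cultures 1 to 4 read wholly above knockout cultures 5 to 7 in 4 large- and 6 small-subunit genes, and wholly below in 8 and 5. These are 14.7% and 19.1% of members, against 17.3% and 19.9% of all features. Mrpl36, a short protein of bacterial descent, read from -1.62 to -1.12 in knockout cultures 1 to 4 and from -0.54 to -0.24 in knockout cultures 5 to 7. Wild-type culture 3 read -1.99, below wild-type cultures 5 to 8. Mrps14, a protein of bacterial descent, read from -2.10 to -1.77 in knockout cultures 1 to 4 and from -1.30 to -0.82 in 5 to 7, and wild-type culture 3 was again the lowest of its group at -2.07.

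Mrps23, a small-subunit protein without a bacterial homologue, and Mrps36 differed between the same sets in opposite directions. Knockout cultures 1 to 4 differed from 5 to 7 by -0.81 in Mrps23, and wild-type culture 3 from the other wild-type cultures by -0.79. For Mrps36 these differences were 0.71 and 0.80. Mrps18c, of bacterial descent, did not follow this layout in both genotypes: it was 0.80 higher in knockout cultures 1 to 4, whereas wild-type culture 3 differed from the other wild-type cultures by -0.05. The labels do not say what the numbers stand for.

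Other genes of mitochondrial translation gave the same count of calls: 0 in each list. Over all features 0.698% were called higher and 0.393% lower, so short lists hold few calls in any case. At an unadjusted limma p under 0.05, 9.35% of all features were higher and 6.23% lower. The counts of every list below stand beside these shares. Of further proteins of the mitochondrial ribosome whose names the rule missed, all 7 listed were tested, among them the death-associated protein Dap3, with a median difference of 0.12 and 0 at an unadjusted limma p under 0.05. Gadd45gip1 and Mrp63 had the smallest p, at 0.15 and 0.19. The array also wrote 3 large-subunit genes in lower case, mrpl9, mrpl11 and mrpl24, which differed by 0.08, 0.19 and -0.17. Of 25 assembly factors tested the median was 0.13, with 1 higher and 0 lower at an unadjusted limma p under 0.05. Mterfd2 and Rpusd4, a pseudouridine synthase, differed by 0.44 and 0.30 (limma adjusted p 0.196 and 0.323).

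Of 12 mitochondrial translation factors, 1 was higher and 1 lower at an unadjusted limma p under 0.05, with a median of 0.03. Tufm, the elongation factor that brings transfer RNA to the ribosome, averaged 2.90 ± 0.13 (SD, n = 7) in knockout cultures, against 2.46 ± 0.15 (SD, n = 5) in wild-type cultures. Its groups did not overlap, and the difference was 0.44 (SE 0.12; limma adjusted p = 0.085). It passed without wild-type culture 3 (0.49, limma adjusted p = 0.0400), and was 0.30, 0.52 and 0.59 within slides 1, 2 and 3. Without that culture, 383 of all 14746 features passed higher and 267 lower, against 103 and 58 over all arrays. Mtif2, the initiation factor, differed by -0.51 (limma adjusted p = 0.233).

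Of 14 mitochondrial aminoacyl-tRNA synthetases, 2 were higher and 0 lower at an unadjusted limma p under 0.05, with a median of 0.08. These were Lars2 (0.34, limma adjusted p = 0.185) and Vars2 (0.35, limma adjusted p = 0.289), which charge leucine and valine. Of 8 regulators of mitochondrial biogenesis, 0 were higher and 1 lower, with a median of -0.07. Myc differed by -0.63 (limma adjusted p = 0.237) and Nrf1, the factor of the promoter motif above, by -0.40 (limma adjusted p = 0.370). The 77 cytosolic ribosomal protein genes tested also held 0 calls, with a median of 0.17 and 8 higher and 0 lower at an unadjusted limma p under 0.05. Their median lay further above that of all features than the mitochondrial ribosome's did, a gap that was not tested. Scan day called 2 of these 77 higher and 0 lower, against 5.06% and 3.97% of all features.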

How the data were processed

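Total RNA of 12 N27 cultures was labelled with Cy3 and hybridised to 1-colour Agilent arrays, per the labels' protocols. Images were read with Agilent Feature Extraction 10.7, per the submitters' processing notes, whereas the file headers name version 10.1.1.1 and genome build rn4. The deposited scanner files give linear intensity per spot (processed, mean and local background signals, per the file headers), with yes-or-no flags as other columns. The authors' deposited value table holds log2 values whose columns share 1 set of sorted values, as quantile normalization leaves them, and served as an alternative. Its Spearman correlation with the scanner signal was 0.999 on every array.

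Control spots, uneven spots and population outliers by the software's flags were dropped, replicate spots of a probe were averaged as log2 processed signal, and the array's 75th percentile was subtracted. The 58717 spots held 45598 probes. The probe with the highest mean over 12 arrays stood for its gene name, and 14746 features with a probe well above background on 5 or more arrays were tested. Depth has no counterpart on arrays, so their number limits the precision.

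Knockout and wild type were compared with limma 3.58.1 in R 4.3.3 (lmFit, eBayes, two-sided, Benjamini-Hochberg adjusted p under 0.05 over all features). This fit alone, not the earlier steps, was also run on simulated independent arrays without slide, scan day or sample number differences. Groups came from the genotype label. The scan day was fitted with genotype in the model, a choice made after values were seen. Motifs were counted with Python 3.11.15. The alternatives changed background correction, normalization, filter, probe rule, flagged spots, variance model, slide, sample numbers, replicate block and each array in turn. Sample numbers were checked for pairing (correlations of deviations 0.46, -0.11, 0.07 and 0.05 for numbers 3, 5, 6 and 7), and the arrays were fitted unpaired. Wild-type culture 3 is the only wild type numbered 1 to 4. The check therefore cannot tell a pair from the split by sample numbers.

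The genes named are Vdac1, in each subunit the members past the threshold or else the 8 with the smallest p, members whose probes disagree in sign with 1 at an unadjusted p under 0.05, and in each other list up to 4 called members or else the 2 with the smallest p. Genes named for scan day or sample numbers, and the members listed with untested or unusual probes, were picked once their values were known. Mrpl47, Mrpl55, Mrps24 and Mrps21l were moved to the bacterial homologues, by the standard names of these proteins, after values were seen. The members and lists were chosen with earlier results of these data known. By accession 66 of 70 members had the same name in RefSeq.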

Additional observations from a re-analysis of the deposited data

Results flagged for a closer look

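Over 28 named genes, each group of arrays was searched for a sample far from the others, 56 groups in all, of which 4 held one. Chance gives about 1 in 20 groups. Wild-type culture 3 was the sample in 3 of the 4: it read 2.27 for Mrpl14, with 1.74 next, 3.61 for Vdac1, with 3.16 next, and -0.32 for Lars2, with -0.62 next, each time the highest of the 5 wild-type cultures. Wild-type culture 6 was the lowest of its group for Vars2 at -3.84, with -3.53 next. These values are log2 signal relative to the array's 75th percentile.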

How the results depend on the processing

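Each result was recomputed under 30 alternatives (29 for Mrps27, Mterfd2 and Vars2, whose probes were not above background on all arrays), of which the scan day as a block was chosen after the data were seen. Over them the median difference ran from 0.05 to 0.22 in the large subunit and from 0.06 to 0.20 in the small subunit. It reached 0.21 in the large subunit among numbers 5 to 8 alone and within slide 2, and 0.22 within slide 1, and 0.20 in the small subunit within slide 2. The count of large-subunit genes called higher was 1 among numbers 5 to 8 alone (Mrpl14) and with the slide or scan day as a block (Mrpl3). It was 0 to 1 in either subunit when an array was left out. Over all 14746 features, 340 were called higher among numbers 5 to 8, and 253 and 230 with the slide or scan day as a block. From 9 to 383 were when an array was left out. Within slide 2, 1 array was the whole wild type and is assumed to vary like the knockout. There Mrpl48, Mrps36, Mrps5 and Mrps14 differed by 0.68, 1.38, 0.71 and -0.65. Members at an unadjusted limma p under 0.05 numbered 10 of 68 (15.6% of all features), 1 with median centring (8.13%), 0 within slide 3 (5.30%), 18 with the slide as a block (18.6%) and 21 within slide 2 (34.6%).

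Signs turned in numbers 1 to 4 alone for Gadd45gip1 (-0.10), Mrpl14 (-0.13), Mrpl22 (-0.054), Mrpl47 (0.034), Mrps25 (-0.14), Mrps34 (-0.012), Mrps35 (-0.050) and Myc (0.023), and within slide 1 for Gadd45gip1 (-0.27), Mrps16 (-0.088), Mrps34 (-0.13), Mrps36 (-0.29) and Mrps27 (-0.32). Mrps27 also turned with the mean over its probes (-0.29), normexp (-0.063), numbers 5 to 8 alone (-0.25), the slide as a block (-0.015) and when 1 array was left out (from -0.031 without wild-type culture 6 to 0.25 without wild-type culture 5). The cause was not tested.

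Over all features the counts higher and lower, 103 and 58, moved to 16 and 9 with normexp, 56 and 48 with quantile normalization, 54 and 50 in the deposited table, 181 and 108 with only probes above background on all arrays, 202 and 97 with trend and robust, 253 and 151 with the slide and 230 and 138 with the scan day as a block, 1062 and 923 within slide 2, 448 and 303 with the 2 sets of numbers as a block, 340 and 348 among numbers 5 to 8, 47 and 5 among numbers 1 to 4, and from 9 to 383 and 3 to 267 when an array was left out, most without wild-type culture 3. Limma gave 0 and 0 with median centring (1199 at an unadjusted p under 0.05), without a filter (1981) and within slides 1 (1760) and 3 (782). The sample number as a replicate block also gave 0 and 0 (1538 at an unadjusted p under 0.05) and 0 members, with medians of 0.13 and 0.15 in the large and small subunits. Knockout culture 3 alone correlated best with its own number, wild-type culture 3 being the only wild type numbered 1 to 4.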
